A study of Mus musculus with 25 samples.

Results

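The comparison described here is between the livers of mice that drank 20% mannose for all 12 weeks of a steatohepatitis regimen and the livers of mice on the same regimen without mannose. Its members are 6 of the 25 libraries of the series, taken by their labels alone: 3 libraries of the 20% prevention group and 3 of the FAT-MASH group. All were male C57BL/6J mice, 8 weeks old at the start and 20 weeks old at the end. The FAT-MASH regimen, a model of metabolic dysfunction-associated steatohepatitis, was shared by both groups. It joined a chow rich in sucrose (41%), fat (21.1%) and cholesterol (1.25%) to drinking water with fructose (23.1 g/L) and glucose (18.9 g/L) and to weekly intraperitoneal carbon tetrachloride, a toxin that injures hepatocytes around the central vein. The prevention group also had d-mannose dissolved in its water. Livers of the same sequencing batch from mice on 5% mannose for 12 weeks, on 5% or 20% mannose for the final 6 weeks (therapy) and on normal chow were used for reference, with 3 libraries each, as were the normal-diet libraries of a second batch (2 without mannose and 3 with 20% mannose). The question, as the series' title puts it in other words, is how mannose changes fructose handling and the disease.

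Mannose is an epimer of glucose that hexokinases phosphorylate. The phosphate sugar then either leaves through phosphomannose isomerase (Mpi) into glycolysis or passes through phosphomannomutase (Pmm2) towards GDP-mannose and the glycans of secreted proteins. Fructose enters the liver by another door, ketohexokinase, which lacks the feedback that restrains glucose use, and so feeds fat synthesis. Hepatocytes of an adult liver rarely divide, carry out most of the body's amino acid breakdown, urea synthesis and plasma protein secretion, and can re-enter the cell cycle after tissue loss or mitogens.

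The libraries held 35583150 to 56010646 counted reads on FAT-MASH and 40810557 to 50081298 with 20% prevention, and the first principal component of the 6 (48.5% of the variance) parted the groups. Levels below are in CPM (counts per 1000000, scaled by TMM, edgeR's trimmed mean method) and stand in the order of replicates 1, 2 and 3, first on FAT-MASH and then with 20% prevention. Log2 fold changes are given ± SE with the adjusted p of edgeR's quasi-likelihood test (Benjamini-Hochberg over 19571 genes). A gene rose or fell where that p was under 0.05. Where leaving out 1 library changed a call, the paragraph ends with those livers by replicate number, the adjusted p without them, and the range of the adjusted p over all 14 alternatives. The labels call the samples biological replicates without tying them to cages or litters, so p-values rest on the spread between livers within groups. That spread was estimated over all 18 first-batch libraries of 6 groups, and over all 25 libraries for the difference between diets. By this test 1336 genes (6.83%) rose and 1616 (8.26%) fell, and these shares are the background for every count below. Without prevention replicate 2, 826 rose and 1112 fell. The median log2 fold change of the 100 most abundant genes by CPM was -0.40, against 0.01 over all genes tested. Scaled by library totals only, all genes had a median of 0.20, and 3066 genes (15.7%) rose while 949 (4.85%) fell, so the split between rises and falls depends on the scaling. The TMM factors were 0.936 to 0.942 on FAT-MASH and 1.01 to 1.13 with mannose. In whole liver, fewer cells of a type and less RNA per cell cannot be told apart.

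**Figure D1:**
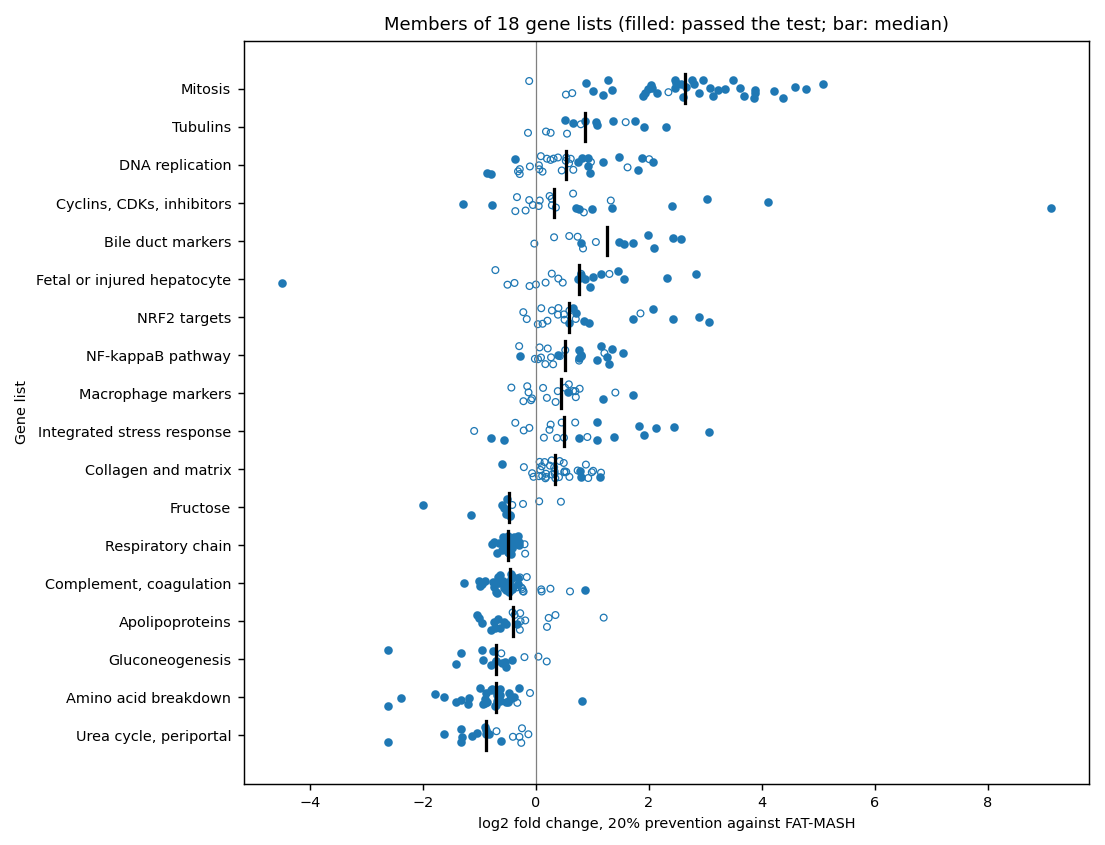
Log2 fold change (20% prevention against FAT-MASH, horizontal axis) of each tested member of 18 gene lists, with 1 point per gene. Filled points passed the edgeR test, open points did not, and the bar is the list's median. The point farthest right is Cdc25c, at 0 on FAT-MASH, whose fitted value is no bound; the mitosis list lies far to the right (median 2.63), while amino acid breakdown, urea, gluconeogenesis and respiratory chain lists lie left of 0.

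Genes of mitosis rose together, with the highest median of the 60 lists examined. The lists were chosen with earlier results of these data known, so this rank is a description only. Of 40 tested genes of the spindle, kinetochore and cytokinesis, 36 rose and 0 fell, with a median log2 fold change of 2.63 (0.01 over all genes tested), and in 39 of the 40 all prevention livers lay above all FAT-MASH livers, against 15.9% of all genes. Ccnb1 (ENSMUSG00000041431.17, chromosome 13, 100915158 to 100923078 on GRCm39) encodes cyclin B1, which drives entry into mitosis. It stood at 0.267, 0.240 and 0.282 CPM on FAT-MASH and at 6.24, 5.03 and 5.31 CPM with 20% prevention, a log2 fold change of 4.37 ± 0.60, adjusted p = 8.09e-05. The FAT-MASH values lay close together, and the lowest prevention liver was far above the highest of them. Plk1, the mitotic kinase polo, went from 0.324, 0.509 and 0.282 to 6.48, 4.55 and 5.06 CPM (3.86 ± 0.63, adjusted p = 0.000399). Nuf2, a kinetochore subunit that binds microtubules, went from 0.0763, 0 and 0.169 to 2.95, 3.50 and 2.26 CPM (5.09 ± 0.63, adjusted p = 3.67e-05). For both genes no library of one group entered the range of the other, and the FAT-MASH livers were all under 1 CPM.

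Cenpf, a kinetochore protein, followed with 0.0763, 0.779 and 0.451 CPM on FAT-MASH and 8.85, 8.56 and 5.47 CPM with mannose (4.21 ± 0.57, adjusted p = 7.18e-05). Cdc20 (3.88 ± 0.51) and Ube2c (3.87 ± 0.42) were the 2 largest of the 12 steepest rises given below. They encode an activator of the anaphase-promoting complex and a ubiquitin-conjugating enzyme that works with it. Mki67, the proliferation antigen, went from 1.64, 3.72 and 3.21 to 26.0, 22.2 and 22.6 CPM (3.07 ± 0.49, adjusted p = 0.000351). Top2a, the topoisomerase that untangles sister chromatids, went from 0.992, 2.04 and 2.99 to 11.5, 13.4 and 11.3 CPM (2.61 ± 0.39, adjusted p = 0.000186). In each of these genes the prevention livers lay together above the FAT-MASH livers. Cdk1, the kinase that cyclin B1 activates, changed less, from 4.27, 3.66 and 4.28 to 11.0, 10.9 and 9.14 CPM (1.34 ± 0.26, adjusted p = 0.00155). The 4 genes of the list that did not pass were Spc25 (0.64 ± 0.22), Ttk (2.34 ± 0.89), Cenpa (0.53 ± 0.24) and Pttg1 (-0.12 ± 0.14). Spc25 (passed on dropping FAT-MASH liver 2, adjusted p 0.0453, range 0.00462 to 0.156) and Ttk (passed on dropping FAT-MASH liver 3, p 0.000133, range 4.95e-05 to 0.229) had calls that changed with 1 liver dropped.

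The promoters of 5 of these genes and of Mcm6, described below, are shown because 36 of the 40 mitosis genes rose, against 10 of 34 replication genes. Each is the 150 bases before the RefSeq start, from RefSeq on GRCm38.p6, in the direction of transcription. Capitals mark matches on either strand to the cell cycle homology region of mitotic promoters (TTTGAA or TTTAAA), to the CCAAT box, and to E2F sites (TTTCCCGC, TTTGGCGC, TTTCGCGC or TTTGCCGC).
Cdc20, chr4:118437344-118437493, minus strand: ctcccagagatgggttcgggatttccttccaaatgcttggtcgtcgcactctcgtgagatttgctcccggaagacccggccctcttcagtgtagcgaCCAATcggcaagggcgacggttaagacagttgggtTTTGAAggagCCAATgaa
Ube2c, chr2:164769779-164769928, plus strand: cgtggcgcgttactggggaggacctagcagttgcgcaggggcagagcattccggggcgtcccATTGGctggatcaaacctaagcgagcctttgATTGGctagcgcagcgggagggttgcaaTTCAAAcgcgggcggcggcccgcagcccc
Ccnb1, chr13:100786487-100786636, minus strand: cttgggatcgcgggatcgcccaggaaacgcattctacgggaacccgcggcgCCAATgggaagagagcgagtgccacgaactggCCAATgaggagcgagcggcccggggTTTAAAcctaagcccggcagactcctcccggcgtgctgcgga
Cdk1, chr10:69352913-69353062, minus strand: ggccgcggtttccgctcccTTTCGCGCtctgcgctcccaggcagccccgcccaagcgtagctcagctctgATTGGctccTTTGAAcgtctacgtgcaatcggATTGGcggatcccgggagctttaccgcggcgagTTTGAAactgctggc
Hmmr, chr11:40733438-40733587, minus strand: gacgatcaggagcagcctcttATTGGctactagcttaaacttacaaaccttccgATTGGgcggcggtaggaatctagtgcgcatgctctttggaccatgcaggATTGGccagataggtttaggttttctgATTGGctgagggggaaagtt
Mcm6, chr1:128359706-128359855, minus strand: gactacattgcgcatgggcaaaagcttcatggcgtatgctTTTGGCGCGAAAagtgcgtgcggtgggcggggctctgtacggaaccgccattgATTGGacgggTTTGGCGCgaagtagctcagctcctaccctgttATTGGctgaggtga

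Each of the 5 mitotic promoters holds at least 2 CCAAT boxes within these bases, and all but that of Hmmr also hold a TTTGAA or TTTAAA match. The Mcm6 promoter holds no such match but has E2F matches, of which the first 2 overlap. Over 250 bases before the start, 36 mitosis genes had a promoter in the table. Of these, 18 (50%) held the homology region, 27 (75%) a CCAAT box and 1 (2.78%) an E2F match. Among 29 replication genes the counts were 6 (20.7%), 17 (58.6%) and 8 (27.6%). Over all 27025 genes with a promoter the shares were 28.1%, 37.5% and 2.16%, and over the 12293 of them that were tested here 21.8%, 39.7% and 3.55%. A CCAAT box was also in 19 of 29 amino acid breakdown genes (65.5%) and 7 of 13 gluconeogenesis genes (53.8%), lists that mostly fell. In other lists with many falls its share was 23.3% (complement and coagulation), 25% (periportal) and 19% (respiratory chain). A match is a description of letters and not a bound site.

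**Figure D2:**
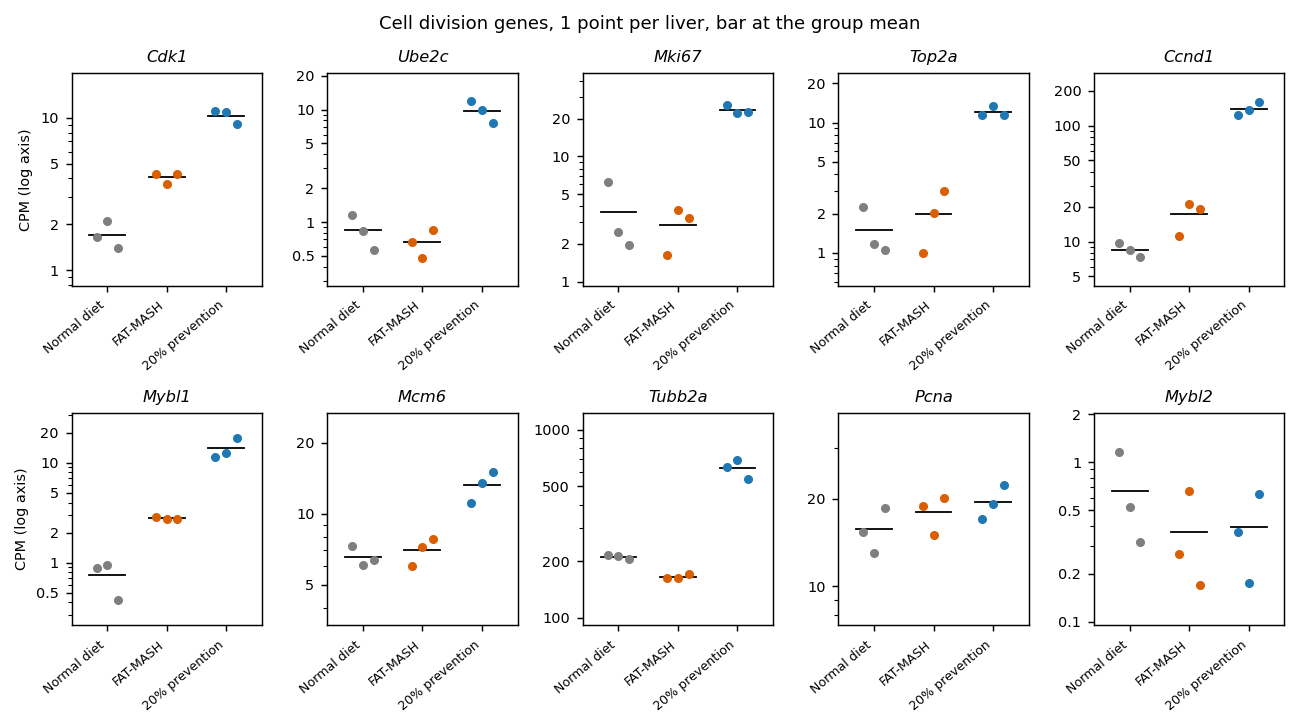
CPM (log axis) of 10 cell division genes in the 9 first-batch livers on normal diet, FAT-MASH and 20% prevention, with 1 point per liver and a bar at the group mean. The prevention livers lie above all FAT-MASH livers for each gene shown except Pcna and Mybl2, the replication clamp and a proliferation factor that did not pass the test.

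Genes of DNA replication did not all move in 1 direction. Of 34 tested, 10 rose and 3 fell, with a median log2 fold change of 0.53. The helicase subunit genes that are loaded onto replication origins were among the rises. Mcm5 went from 1.11, 1.32 and 2.54 to 5.73, 6.37 and 5.91 CPM (1.87 ± 0.36, adjusted p = 0.00151). Mcm6 went from 5.99, 7.25 and 7.80 to 11.1, 13.5 and 15.1 CPM (0.92 ± 0.20, adjusted p = 0.00398). The groups did not overlap in either gene, while Mcm7, of the same complex, was at 0.06 ± 0.11 and did not pass. Pcna, the sliding clamp of DNA polymerase, was at 18.9, 15.0 and 20.1 CPM on FAT-MASH and at 17.1, 19.1 and 22.3 CPM with mannose (0.11 ± 0.14, adjusted p = 0.673) and did not pass. Among the genes that fell were Tk1, the thymidine kinase of S phase (17.2, 17.6 and 17.8 to 10.5, 8.99 and 9.33 CPM; -0.87 ± 0.16, adjusted p = 0.000936), and Mcm10 (-0.79 ± 0.18). Tk1 was lower in every prevention liver than in any FAT-MASH liver. Without prevention replicate 3, 6 replication genes rose.

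Among cyclins, cyclin-dependent kinases and their inhibitors 8 of 24 rose and 2 fell (median 0.32; 10 and 0 with library totals). Ccnd1, cyclin D1, carries mitogen signals into the cell cycle. It went from 11.2, 21.2 and 19.0 to 123, 137 and 159 CPM (3.03 ± 0.29, adjusted p = 5.67e-06), and every prevention liver was several times above the highest FAT-MASH liver. Ccnd2 (0.99 ± 0.23), Ccna2 (2.41 ± 0.45), the mitotic phosphatase gene Cdkn3 (4.10 ± 0.67) and Wee1, the kinase that restrains Cdk1 (1.35 ± 0.23), rose as well. Cdc25c, a phosphatase that activates Cdk1, had 0 counts in all FAT-MASH livers and averaged 1.68 CPM with mannose, at least 21.7-fold higher than the 3 counts per library taken as the floor. The falls were Cdkn1c (-1.29 ± 0.39) and Ccnf (-0.79 ± 0.26). Of 20 transcription factors of the cell cycle 4 rose (Mybl1, E2f3, Foxm1 and E2f6) and 0 fell (median 0.14; 8 rises with library totals and 7 with no filter on low counts). The MYB family member Mybl1 went from 2.86, 2.76 and 2.73 to 11.3, 12.5 and 17.9 CPM (2.32 ± 0.26, adjusted p = 1.86e-05), without overlap. Foxm1, which activates mitotic genes, rose by 2.64 ± 0.57 and E2f3 by 0.69 ± 0.14. Values that did not pass were 0.65 ± 0.23 for E2f1, 0.12 ± 0.72 for Mybl2 and 1.19 ± 0.56 for Myc. Cdkn1c (missed on dropping FAT-MASH liver 1, 2 or 3 or prevention liver 1 or 2, adjusted p 0.0558 to 0.128, range 0.00407 to 0.128), Ccnf (missed on dropping any 1 of the 6, p 0.0507 to 0.175, range 9.88e-06 to 0.175) and E2f6 (missed on dropping FAT-MASH liver 2 or 3 or prevention liver 1 or 2, p 0.0546 to 0.106, range 0.00147 to 0.106) had calls that changed with 1 liver dropped.

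Tubulins, the subunits of microtubules, and related factors rose in 9 of 15 cases and fell in 0 (median 0.86). The list includes the gamma tubulin gene Tubg1 and the microtubule regulators Stmn1 and Map1b. Tubb2a was at 163, 162 and 171 CPM on FAT-MASH and 632, 695 and 545 CPM with mannose (1.92 ± 0.19, adjusted p = 5.67e-06). Its FAT-MASH livers were within a narrow range and its prevention livers were all over 3 times higher. Tubb2b (2.30 ± 0.22), Tuba1c (1.07 ± 0.12) and Tubb5 (0.66 ± 0.10) rose too. These genes resemble each other closely, and reads that aligned to more than 1 place were not counted by the counter's defaults, so levels of single tubulin genes are uncertain.

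A mixed list of growth factors, receptors and related signalling genes, 24 tested, held 8 rises and 3 falls, Hgfac, Il6ra and Met (median 0.30). Besides EGF and HGF family genes the list holds Il6ra, Il6st, Socs3, Fgfr4, Klb, Fgf1, Fgf21, Vegfa, Pdgfa, Pdgfb, Ccn1 and Ccn2. Areg, amphiregulin, a ligand of the EGF receptor made after liver injury, went from 0.114, 0.240 and 0.169 to 2.49, 2.45 and 2.79 CPM (3.90 ± 0.77, adjusted p = 0.00218). Btc, betacellulin, a ligand of the same receptor, rose by 1.33 ± 0.30. Hgfac, the protease that activates hepatocyte growth factor, went the other way, from 254, 259 and 228 to 121, 115 and 121 CPM (-1.05 ± 0.15, adjusted p = 0.000118). Every prevention liver was at about the same level, well below all FAT-MASH livers. Hgf itself, a product of stellate cells, went from 6.79, 9.62 and 10.1 to 16.1, 19.2 and 15.4 CPM (0.94 ± 0.24, adjusted p = 0.00991). The count of rises was 5 without FAT-MASH replicate 1 and 4 without prevention replicate 2, and the count of falls was 1 without FAT-MASH replicate 3. Il6ra (missed on dropping FAT-MASH liver 1 or 3, adjusted p 0.0586 to 0.0818, range 1.98e-08 to 0.0818), Met (missed on dropping FAT-MASH liver 2 or 3 or prevention liver 1, 2 or 3, p 0.0526 to 0.16, range 0.0188 to 0.36) and Hgf (missed on dropping FAT-MASH liver 1 or prevention liver 2, p 0.0508 to 0.0631, range 9.57e-06 to 0.0631) had calls that changed with 1 liver dropped.

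Genes of fructose uptake and breakdown fell in 8 of 12 cases and rose in 0 (median -0.49), and 5 fell with library totals as scaling and 5 without prevention replicate 2. Khk encodes ketohexokinase, and its values were 809, 834 and 838 CPM on FAT-MASH and 392, 392 and 336 CPM with mannose (-1.15 ± 0.17, adjusted p = 0.000197), against 447, 491 and 561 CPM on normal diet. The prevention livers were below all FAT-MASH livers and below those on normal diet. Slc2a9, a transporter of urate and hexoses, went from 49.7, 49.9 and 49.8 to 36.0, 28.9 and 35.8 CPM (-0.57 ± 0.10, adjusted p = 0.000831). Slc2a5, the intestinal type fructose transporter, was at 5.23, 6.59 and 8.11 against 1.43, 1.01 and 2.47 CPM. Slc2a2, the main hexose carrier of hepatocytes, changed by -0.53 ± 0.14. Slc2a2 (missed on dropping FAT-MASH liver 3 or prevention liver 2, adjusted p 0.0527 to 0.0927, range 0.000593 to 0.103) had a call that changed with 1 liver dropped.

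On the mannose side, 3 of 17 genes of mannose, GDP-mannose and GDP-fucose metabolism rose and 2 fell (median 0.24). The rises were Mpi (0.59 ± 0.15), Slc35c1 (0.46 ± 0.14) and Gmds (0.99 ± 0.31), and the falls were Gckr (-0.96 ± 0.13) and Pmm2 (-0.32 ± 0.10). Gckr, a regulator of glucokinase, is in the list as a hexokinase gene. The isomerase gene Mpi was at 11.7, 8.45 and 9.33 CPM on FAT-MASH and 15.0, 15.1 and 14.4 CPM with mannose (0.59 ± 0.15, adjusted p = 0.0107), and the mutase gene Pmm2 at 54.0, 54.1 and 53.1 and 43.7, 41.6 and 43.7 CPM (-0.32 ± 0.10, adjusted p = 0.0276). Leaving out FAT-MASH replicate 1 or 2 or prevention replicate 2 left 1 rise, and library totals gave 8 rises and 1 fall. Of 34 genes of N-glycan assembly and trimming 6 rose and 1, Dpm3, fell (median 0.05; 12 and 0 with library totals). Among the rises were subunits of the oligosaccharyltransferase, which attaches the glycan to nascent proteins: Rpn1 (0.61 ± 0.12), Ostc (0.58 ± 0.12) and Stt3b (0.43 ± 0.09), with the trimming mannosidase Man1b1 (0.40 ± 0.09). Rpn1 was at 103, 94.3 and 92.1 CPM on FAT-MASH and 139.8, 159 and 144 CPM with mannose, without overlap. Mpi (missed on dropping FAT-MASH liver 2, adjusted p 0.0642, range 0.00184 to 0.0642), Slc35c1 (missed on dropping FAT-MASH liver 1 or prevention liver 1 or 2, p 0.0962 to 0.143, range 0.00136 to 0.143), Gmds (missed on dropping FAT-MASH liver 1 or 2 or prevention liver 1 or 2, p 0.0545 to 0.169, range 0.01 to 0.169), Pmm2 (missed on dropping any 1 of the 6, p 0.0569 to 0.106, range 0.0172 to 0.344) and Dpm3 (missed on dropping FAT-MASH liver 2 or 3 or prevention liver 1 or 3, p 0.0751 to 0.238, range 0.0321 to 0.238) had calls that changed with 1 liver dropped.

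Gluconeogenesis genes had 13 falls and 0 rises among 17 tested (median -0.70; 10 falls with library totals). Slc37a4, the transporter that carries glucose phosphate into the endoplasmic reticulum for release as glucose, went from 266, 177 and 235 to 125, 113 and 110.4 CPM (-0.96 ± 0.21, adjusted p = 0.00402). Gcgr, the glucagon receptor, went from 446, 429.7 and 348 to 266, 238 and 247 CPM (-0.70 ± 0.12, adjusted p = 0.000775). Both showed lower values in all prevention livers than in any FAT-MASH liver. Gpt, the alanine aminotransferase (-0.95 ± 0.14), and Pcx, pyruvate carboxylase (-0.55 ± 0.14), fell as well. Among 21 genes of the sugar-sensing factor ChREBP and its targets 2 rose, Fgf21 (1.83 ± 0.49) and Pnpla3 (1.11 ± 0.35), and 6 fell (median 0.11). With library totals 4 rose and 4 fell, with no filter on low counts 4 and 8, and 0 rose without FAT-MASH replicate 3 or prevention replicate 2. Mlxipl, which encodes ChREBP, went from 783, 594 and 392 to 316, 223 and 276 CPM (-1.12 ± 0.20, adjusted p = 0.000804), and Gckr, the regulator that holds glucokinase in the nucleus, from 345, 299 and 272 to 165, 137 and 169 CPM (-0.96 ± 0.13, adjusted p = 6.30e-05). In neither gene did the groups overlap. Fgf21 (missed on dropping FAT-MASH liver 2 or 3 or prevention liver 2, adjusted p 0.0638 to 0.106, range 6.46e-34 to 0.106) and Pnpla3 (missed on dropping FAT-MASH liver 1 or 3 or prevention liver 1 or 2, p 0.0752 to 0.152, range 0.00167 to 0.152) had calls that changed with 1 liver dropped.

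**Figure D3:**
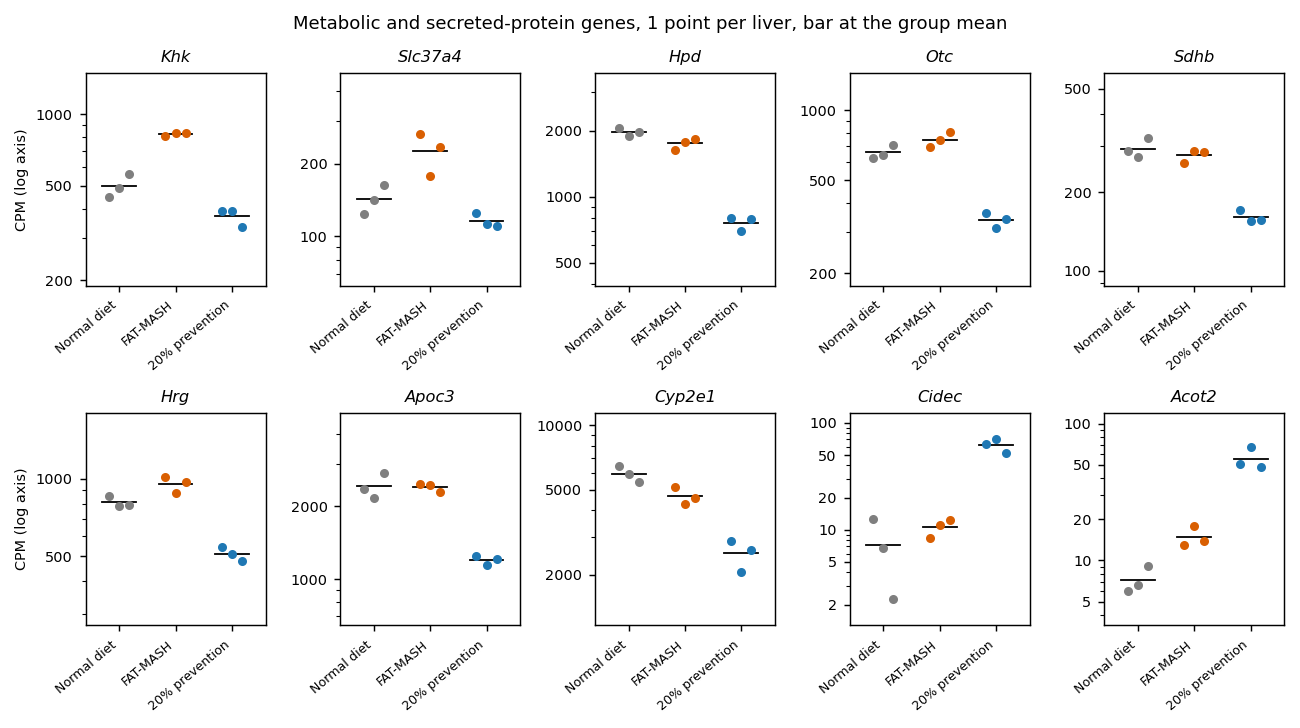
CPM (log axis) of 10 metabolic and secreted-protein genes in the 9 first-batch livers on normal diet, FAT-MASH and 20% prevention, with 1 point per liver and a bar at the group mean. The prevention livers lie below all FAT-MASH livers for every gene shown but Cidec and Acot2, which lie above.

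Lipid genes did not move as 1 group. Of 23 lipogenesis genes 2 rose and 3 fell (median 0.16; 4 and 3 with library totals, 6 and 5 with no filter), of 26 genes of fat oxidation and ketone bodies 5 rose and 7 fell (4 falls with library totals and 4 without FAT-MASH replicate 2), and of 27 lipid droplet and fat uptake genes 4 rose (Pparg, Cidec, Hilpda and Plin2) and 4 fell (Slc27a5, Slc27a2, Fabp2 and Fabp4), with 9 rises and 3 falls under library totals. Cidec, a droplet fusion protein, went from 8.43, 11.1 and 12.3 to 63.4, 70.2 and 52.7 CPM (2.55 ± 0.50, adjusted p = 0.00159). Pparg, the adipogenic receptor that activates it, went from 13.7, 10.1 and 13.4 to 28.4, 30.6 and 26.1 CPM (1.19 ± 0.22, adjusted p = 0.00122). Plin2, the coat protein of hepatocyte droplets, went from 719, 912 and 664 to 1358, 1568 and 1168 CPM (0.84 ± 0.19, adjusted p = 0.00575). In all 3 genes the prevention livers were above the FAT-MASH livers without overlap. Fabp4 (missed on dropping FAT-MASH liver 2 or prevention liver 1 or 2, adjusted p 0.0791 to 0.105, range 0.00198 to 0.197) had a call that changed with 1 liver dropped.

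Acot2, a mitochondrial acyl-CoA thioesterase, went from 12.96, 17.9 and 13.8 to 50.6, 67.7 and 48.0 CPM (1.90 ± 0.20, adjusted p = 1.15e-05), and its near copy Acot1 rose by 1.72 ± 0.22. Ehhadh, of peroxisomal oxidation (1.23 ± 0.19), Cyp4a14, an omega-hydroxylase (1.94 ± 0.37), and Pdk4, a kinase that inhibits pyruvate dehydrogenase (1.72 ± 0.37), also rose. Echs1 (-0.65 ± 0.10), Acaa2 (-0.49 ± 0.09) and Acads (-0.45 ± 0.09), enzymes of the mitochondrial beta-oxidation spiral, fell, while Cpt1a, the gate of that pathway, was at -0.22 ± 0.13 and Ppara at 0.03 ± 0.23, neither past the test. Of the lipogenesis genes Scd2 (1.23 ± 0.27) and Pnpla3 (1.11 ± 0.35) rose and Agpat2 (-0.71 ± 0.13), Lpin1 (-1.69 ± 0.37) and Dgat2 (-0.54 ± 0.12) fell. Agpat2 and Dgat2 act in triglyceride assembly. Cholesterol genes rose in 5 of 24 cases (Hsd17b7, Cyp51 and Idi1 among them) and fell in 2, Ebp and Tm7sf2 (10 and 0 with library totals; 3 rises without prevention replicate 1 or 3 or FAT-MASH replicate 1). Hsd17b7, a late enzyme of cholesterol synthesis, went from 18.3, 19.5 and 19.9 to 42.9, 37.7 and 33.2 CPM (0.98 ± 0.12, adjusted p = 3.49e-05), still below the 120.2, 112 and 122 CPM of normal diet. Abcg5 (-1.21 ± 0.25) and Abcg8 (-1.15 ± 0.25), the partners of the sterol export pump of bile, both fell. Idi1 (missed on dropping FAT-MASH liver 1 or prevention liver 1 or 3, adjusted p 0.0512 to 0.143, range 4.25e-06 to 0.143), Ebp (missed on dropping FAT-MASH liver 2 or prevention liver 1, 2 or 3, p 0.0551 to 0.132, range 0.0116 to 0.163) and Tm7sf2 (missed on dropping FAT-MASH liver 2 or 3 or prevention liver 2 or 3, p 0.0517 to 0.259, range 0.000371 to 0.259) had calls that changed with 1 liver dropped.

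Most enzymes of amino acid breakdown fell. Of 35, 32 fell and 1 rose (median -0.72; 26 falls with library totals), against 8.26% of all genes. Hpd, the dioxygenase of tyrosine breakdown, went from 1636, 1782 and 1824 to 803, 697 and 789 CPM (-1.20 ± 0.12, adjusted p = 6.71e-06). Ftcd, of histidine and folate metabolism, went from 692, 705 and 662 to 294, 261 and 265 CPM (-1.33 ± 0.14, adjusted p = 7.52e-06), and Hal, which starts histidine breakdown, from 515, 522 and 543 to 213, 149.7 and 145 CPM (-1.64 ± 0.24, adjusted p = 0.000158). These genes were lower by more than a factor of 2 in every prevention liver, and their groups did not overlap. Prodh2, of hydroxyproline breakdown, went from 353, 349 and 318 to 162, 137 and 141 CPM (-1.21 ± 0.11, adjusted p = 5.67e-06). Gnmt, which disposes of methyl groups with glycine, went from 1164, 1483 and 1741 to 438, 434 and 394 CPM (-1.79 ± 0.18, adjusted p = 6.09e-06), and Bhmt, the betaine methyltransferase, changed by -2.39 ± 0.41. The gene that rose was Acmsd, of tryptophan breakdown (0.81 ± 0.20), and Cbs (-0.11 ± 0.11) and Amt (-0.33 ± 0.11) did not pass. Amt (passed on dropping FAT-MASH liver 1, adjusted p 0.038, range 0.034 to 0.351) had a call that changed with 1 liver dropped.

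The urea cycle and other periportal genes had 12 falls and 0 rises among 18 tested (median -0.89). Otc, ornithine transcarbamylase, went from 693, 742 and 809 to 362, 314 and 341 CPM (-1.14 ± 0.13, adjusted p = 2.52e-05). Ass1 (-0.89 ± 0.18), Asl (-1.04 ± 0.14) and Arg1 (-0.83 ± 0.14), the next steps of the cycle, fell by similar amounts. Pericentral genes, which mark hepatocytes at the other end of the lobule, rose in 4 of 17 cases and fell in 1 (median 0.40). The rises were Slc1a2 (0.99 ± 0.24), Axin2 (0.78 ± 0.20), Slc1a4 (0.99 ± 0.30) and Lhpp (0.87 ± 0.26), and the fall was Cyp2e1 (-0.89 ± 0.17). The count of rises was 8 with library totals and 2 without prevention replicate 1 or 3 or FAT-MASH replicate 3. Slc1a2 (missed on dropping prevention liver 1, adjusted p 0.05, range 9.68e-13 to 0.05), Axin2 (missed on dropping FAT-MASH liver 3, p 0.06, range 0.000111 to 0.06), Slc1a4 (missed on dropping FAT-MASH liver 1 or prevention liver 2 or 3, p 0.0765 to 0.142, range 3.25e-08 to 0.142) and Lhpp (missed on dropping FAT-MASH liver 1 or 3 or prevention liver 1 or 3, p 0.0556 to 0.152, range 4.58e-07 to 0.152) had calls that changed with 1 liver dropped.

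Nuclear-encoded subunits of the respiratory chain fell in 27 of 29 cases and rose in 0 (median -0.50; 20 falls with library totals). Sdhb, the iron-sulfur subunit of succinate dehydrogenase, went from 258, 288 and 287 to 171, 155 and 156 CPM (-0.79 ± 0.09, adjusted p = 2.14e-05), with normal diet at 289, 272 and 322 CPM. Its prevention livers lay below both other groups. Ndufs3 of complex I (-0.69 ± 0.10), Uqcrc1 (-0.58 ± 0.10) and Cyc1 (-0.56 ± 0.10) of the cytochrome bc complex and Cox4i1 of cytochrome oxidase (-0.52 ± 0.10) fell together. The subunits that did not pass were Sdha (-0.20 ± 0.10) and Cycs (-0.19 ± 0.24). Mitochondrially encoded subunits had no counts in these libraries and were not tested.

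Many genes of proteins that hepatocytes secrete into blood fell. Complement and coagulation genes had 28 falls and 1 rise among 40 tested (median -0.46; 19 and 2 with library totals). Hrg, histidine-rich glycoprotein, went from 1013, 877 and 973 to 543, 509 and 480.4 CPM (-0.90 ± 0.10, adjusted p = 1.42e-05). F11 (-1.28 ± 0.19) and F7 (-1.01 ± 0.15), coagulation proteases, and C8g of the membrane attack complex (-0.998 ± 0.13) fell as well. The rise was C6 (0.86 ± 0.23). Apolipoproteins and lipoprotein enzymes fell in 11 of 21 cases and rose in 0 (median -0.42; 9 and 3 with library totals). Apoe, the ligand for uptake of lipoprotein remnants, went from 33521, 34006 and 30709.5 to 20248, 18997 and 19446 CPM (-0.74 ± 0.12, adjusted p = 0.000401). Lipc, hepatic lipase, went from 257, 256 and 239 to 132, 123 and 132 CPM (-0.96 ± 0.10, adjusted p = 1.15e-05), and Apoc3, an inhibitor of lipoprotein lipase, from 2481, 2442 and 2292 to 1243, 1144 and 1208 CPM (-1.01 ± 0.14, adjusted p = 7.28e-05). The prevention livers were lower without overlap in all 3 genes. Apob was at 5922, 6669 and 7055 and 9799, 8073 and 7046 CPM (0.34 ± 0.13, adjusted p = 0.0956), with overlap between the groups, and did not pass here but did with library totals. C6 (missed on dropping FAT-MASH liver 1 or prevention liver 1, adjusted p 0.0594 to 0.0729, range 8.18e-11 to 0.0729) and Apob (passed on dropping prevention liver 3, p 0.0386, range 0.005 to 0.387) had calls that changed with 1 liver dropped.

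Acute phase genes had 12 falls and 2 rises among 25 tested, Cd14 and Steap4 (median -0.48; 0 rises when FAT-MASH liver 1 or 2 or prevention liver 2 was left out), with Saa4 (-1.09 ± 0.15) and Itih3 (-0.79 ± 0.12) among the falls. The hepatocyte markers as a list fell in 7 of 14 tested cases and rose in 0 (median -0.33; 5 and 2 with library totals). Alb itself was at 75305, 68424 and 67560.1 CPM on FAT-MASH and 74659, 70293 and 60487 CPM with mannose (-0.04 ± 0.12, adjusted p = 0.87), and Hnf4a, the master factor of hepatocytes, at 649.6, 573 and 581 and 629.6, 657 and 515 CPM (-0.00 ± 0.11, adjusted p = 0.993). Neither passed, and their groups overlapped. Of 27 hepatocyte transcription factors 2 rose, Rora (0.59 ± 0.12) and Foxa3 (0.65 ± 0.14), and 3 fell, among them Nr0b2 (-1.77 ± 0.22) and Nr1h4 (-0.55 ± 0.10). With library totals 5 of these rose and 3 fell, and DESeq2 called 2 and 5. The hepatocyte markers summed to 127334 to 140869 CPM on FAT-MASH and to 111169.9 to 136195 CPM with mannose. What part the number of hepatocytes had in the falls above was not tested. Cd14 (missed on dropping FAT-MASH liver 1 or 2 or prevention liver 2, adjusted p 0.074 to 0.127, range 4.33e-10 to 0.127) and Steap4 (missed on dropping FAT-MASH liver 1 or 2 or prevention liver 2, p 0.0839 to 0.157, range 1.21e-07 to 0.157) had calls that changed with 1 liver dropped.

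Bile acid synthesis genes had 11 falls and 0 rises among 20 tested (median -0.47). With library totals 7 fell and 1 rose, and 7 fell without prevention replicate 2 or 3. Akr1d1, a reductase of bile acid synthesis (188, 209.8 and 265 to 109, 96.8 and 91.6 CPM; -1.16 ± 0.16, adjusted p = 7.18e-05), and Nr1h4, the bile acid receptor FXR (143, 146 and 120.1 to 102, 84.9 and 93.3 CPM; -0.55 ± 0.10, adjusted p = 0.00101), were lower without overlap. Cyp7a1, the rate-limiting enzyme, was at 67.2, 109 and 165 and 135, 75.5 and 157 CPM (0.11 ± 0.29, adjusted p = 0.859) and did not pass. Hepatocyte transporters fell in 7 of 24 cases and rose in 4 (Abcb1a, Slc10a2, Abcc4 and Abcb4). Slc10a2, the bile acid carrier of ileum and bile ducts, went from 20.1, 22.8 and 30.9 to 75.1, 64.3 and 54.3 CPM (1.39 ± 0.20, adjusted p = 0.000106), and the efflux pump gene Abcb1a rose by 1.60 ± 0.22, both with all prevention livers above all FAT-MASH livers. Without prevention replicate 2 the count of rises was 2. Abcc4 (missed on dropping prevention liver 2, adjusted p 0.0547, range 2.48e-27 to 0.0547) and Abcb4 (missed on dropping FAT-MASH liver 1, 2 or 3 or prevention liver 1 or 2, p 0.0903 to 0.187, range 0.00379 to 0.187) had calls that changed with 1 liver dropped.

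Cytochromes P450 of families 2 and 3, which oxidise drugs and steroids, fell in 13 of 38 cases and rose in 6. With library totals 9 fell and 9 rose, with no filter 15 fell and 12 rose, and without FAT-MASH replicate 2 the counts were 9 and 3. Cyp2e1, the enzyme that activates carbon tetrachloride, went from 5141, 4265 and 4589.9 to 2889, 2061 and 2617 CPM (-0.89 ± 0.17, adjusted p = 0.0014). The prevention livers lay below all FAT-MASH livers, and what this had to do with the injury was not tested. Cyp2d9 (-1.67 ± 0.25) and Cyp2c54 (-1.91 ± 0.31) fell, and Cyp2c38 (2.02 ± 0.38) and Cyp2c55 (1.42 ± 0.32) rose, all members of families with near-identical genes. Genes more active in male liver fell in 7 of 20 cases and rose in 1 (median -0.51), which was C6 (0.86 ± 0.23). With library totals 5 fell and 2 rose, and the count of falls was 3 without FAT-MASH replicate 2 and 2 without prevention replicate 2. Ghr, the growth hormone receptor, went from 508, 565 and 559.6 to 406, 319 and 353 CPM (-0.60 ± 0.11, adjusted p = 0.000913).

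Of 23 genes of the integrated stress response 9 rose and 2 fell (median 0.49). The falls were Shmt2 (-0.58 ± 0.10) and Cth (-0.80 ± 0.15). Psat1, of serine synthesis, went from 2.61, 1.98 and 3.04 to 14.0, 19.6 and 8.25 CPM (2.45 ± 0.33, adjusted p = 6.71e-05). Atf3, a stress factor, went from 4.77, 5.27 and 7.18 to 26.2, 30.0 and 18.4 CPM (2.12 ± 0.42, adjusted p = 0.00198). Slc3a2, the shared chain of amino acid exchangers (1.08 ± 0.16), and Mthfd2, of mitochondrial folate metabolism (1.39 ± 0.29), rose too. The groups did not overlap in these genes. Atf4 (0.24 ± 0.18), Ddit3 (0.45 ± 0.27) and Asns (0.37 ± 0.49), the factor and textbook targets of it, did not pass. Chaperones and sensors of the unfolded protein response rose in 8 of 24 cases and fell in 1, Herpud1 (median 0.33), against 21 and 1 with library totals and 4 or 5 rises without any single library but prevention replicate 3. Atf6, a sensor of the endoplasmic reticulum, was among them with 64.6, 64.0 and 68.1 CPM on FAT-MASH and 110.2, 116 and 96.1 CPM with mannose (0.71 ± 0.11, adjusted p = 0.00022). Herpud1 (missed on dropping FAT-MASH liver 1 or prevention liver 3, adjusted p 0.0597 to 0.11, range 3.48e-14 to 0.11) had a call that changed with 1 liver dropped.

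Targets of the antioxidant factor NRF2 rose in 10 of 24 cases and fell in 0 (median 0.59), but the prevention livers differed among themselves. Srxn1, sulfiredoxin, went from 71.9, 72.2 and 96.4 to 212, 464 and 117 CPM (1.72 ± 0.37, adjusted p = 0.00344), and Gsta1, a glutathione transferase, from 10.5, 9.59 and 13.2 to 56.9, 101 and 20.2 CPM (2.42 ± 0.56, adjusted p = 0.00576). Cbr3, a carbonyl reductase, was at 3.63, 4.46 and 9.04 CPM on FAT-MASH and 37.1, 80.7 and 7.83 CPM with mannose (2.88 ± 0.72, adjusted p = 0.0092). In all 3 genes prevention replicate 2 was highest and replicate 3 lowest, and for Cbr3 replicate 3 lay within the FAT-MASH range. Cyp2a5, a cytochrome that NRF2 also activates, was at 248, 172 and 286 CPM on FAT-MASH and 1111, 1468 and 234 CPM with mannose (1.99 ± 0.60, adjusted p = 0.0301), in the same order. Nqo1 (0.70 ± 0.46), Gclc (0.28 ± 0.29) and Gclm (0.03 ± 0.16) did not pass. The count of rises was 5 without FAT-MASH replicate 1, 2 without prevention replicate 2 and 17 with no filter. Cbr3 (missed on dropping FAT-MASH liver 1 or prevention liver 2, adjusted p 0.0507 to 0.0808, range 4.10e-54 to 0.0808) and Cyp2a5 (missed on dropping FAT-MASH liver 1, 2 or 3 or prevention liver 1 or 2, p 0.0587 to 0.151, range 2.77e-53 to 0.151) had calls that changed with 1 liver dropped.

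**Figure D4:**
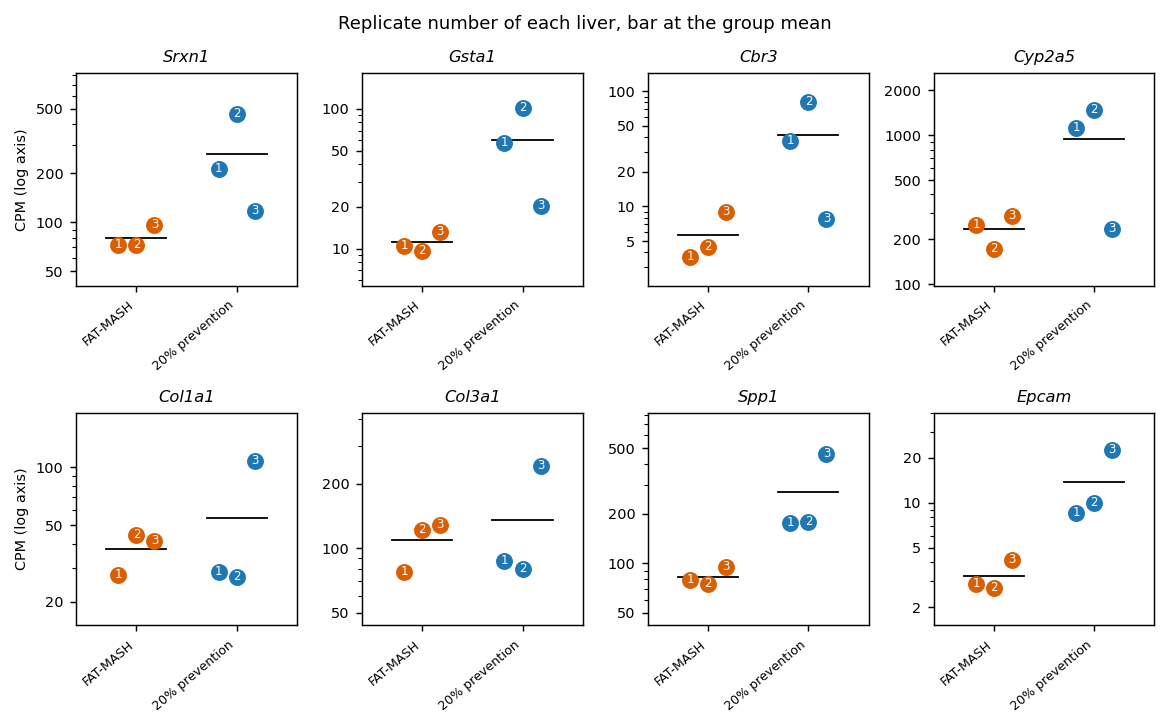
CPM (log axis) of 8 genes whose prevention livers differed among themselves, for the 3 FAT-MASH and the 3 prevention livers, with the replicate number drawn at each point. Prevention replicate 3 is lowest for Srxn1, Gsta1, Cbr3 and Cyp2a5 and highest for Col1a1, Col3a1, Spp1 and Epcam.

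In a pair of fibrillar collagen genes prevention replicate 3 was highest and replicate 2 lowest. Col1a1 was at 27.4, 44.4 and 41.6 CPM on FAT-MASH and at 28.6, 26.9 and 108 CPM with mannose (0.53 ± 0.52, adjusted p = 0.564), and Col3a1 at 77.7, 121 and 128 and 87.3, 79.9 and 241 CPM (0.32 ± 0.45, adjusted p = 0.708). Prevention replicates 1 and 2 lay at or below the level of most FAT-MASH livers and replicate 3 above all of them, and neither gene passed. Of 36 collagen and matrix genes 3 rose and 1 fell (median 0.33; 7 rises with library totals and 15 with no filter): Nid1 (1.13 ± 0.19), Lamc1 (0.77 ± 0.14) and Col4a1 (0.79 ± 0.23) rose and Col18a1 (-0.61 ± 0.15) fell. Nid1, a linker of basement membranes, was the clearest, at 26.8, 22.9 and 34.6 CPM on FAT-MASH and 56.2, 61.8 and 66.6 CPM with mannose, with no overlap. Matrix proteases and inhibitors rose in 5 of 25 cases and fell in 0, with Adamts1 (1.50 ± 0.20), Mmp7 (2.73 ± 0.60), Plau (1.40 ± 0.34) and Adam9 (0.29 ± 0.09) among the rises (8 rises with no filter). Adamts1 went from 13.5, 13.1 and 12.1 to 37.8, 35.1 and 36.3 CPM without overlap. Col4a1 (missed on dropping FAT-MASH liver 1 or 2 or prevention liver 3, adjusted p 0.0603 to 0.127, range 4.25e-09 to 0.127) and Adam9 (missed on dropping FAT-MASH liver 1 or 2 or prevention liver 1 or 2, p 0.0793 to 0.18, range 0.00132 to 0.18) had calls that changed with 1 liver dropped.

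NF-kappaB pathway genes had 11 rises and 1 fall among 25 tested (median 0.52). Bcl3, a coactivator of the pathway, went from 26.0, 34.7 and 24.4 to 58.8, 70.9 and 58.1 CPM (1.14 ± 0.17, adjusted p = 0.000239), and Nfkb2 (1.26 ± 0.23), Icam1 (1.09 ± 0.21) and Tnip1 (0.76 ± 0.14) rose too. The fall was Sod2 (-0.29 ± 0.09). Chemokines rose in 5 of 26 cases and fell in 0 (median 0.59): Cxcl5 (2.71 ± 0.75), Cx3cl1 (1.58 ± 0.44), Cxcl10 (1.51 ± 0.42), Ccl2 (1.60 ± 0.47) and Ccl7 (2.38 ± 0.72). That count was 1 without FAT-MASH replicate 1 and 2 without FAT-MASH replicate 2 or 3, and 10 with no filter. Of 28 interferon response and antigen presentation genes 0 rose and 1, B2m (-0.49 ± 0.11), fell (median 0.11); with no filter on low counts 5 rose. Sod2 (missed on dropping FAT-MASH liver 1, 2 or 3 or prevention liver 1 or 3, adjusted p 0.0571 to 0.177, range 0.0121 to 0.384), Cxcl5 (missed on dropping FAT-MASH liver 1 or 3, p 0.0661 to 0.0877, range 9.89e-10 to 0.0877), Cx3cl1 (missed on dropping FAT-MASH liver 1 or prevention liver 3, p 0.0973 to 0.144, range 2.94e-06 to 0.144), Cxcl10 (missed on dropping FAT-MASH liver 2 or 3 or prevention liver 2, p 0.0559 to 0.168, range 1.26e-08 to 0.168), Ccl2 (missed on dropping FAT-MASH liver 1, 2 or 3 or prevention liver 2, p 0.0537 to 0.252, range 3.46e-07 to 0.252) and Ccl7 (missed on dropping FAT-MASH liver 1, 2 or 3 or prevention liver 2, p 0.0825 to 0.199, range 0.000207 to 0.199) had calls that changed with 1 liver dropped.

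Markers of bile duct cells rose in 8 of 14 cases and fell in 0 (median 1.26). Epcam went from 2.86, 2.70 and 4.17 to 8.51, 9.98 and 22.6 CPM (2.08 ± 0.47, adjusted p = 0.00497), and Cd24a from 7.06, 7.13 and 7.83 to 14.1, 20.7 and 29.8 CPM (1.55 ± 0.41, adjusted p = 0.0132), with prevention replicate 3 highest and no overlap. Krt19 (0.32 ± 0.45) and Krt7 (0.59 ± 0.41), the keratins that define these cells, did not pass. The count of rises was 2 without FAT-MASH replicate 1, 3 without prevention replicate 3 and 5 by limma voom. The markers summed to 146 to 168 CPM on FAT-MASH and to 270.2 to 652 CPM with mannose. These sums include Spp1 (79.2, 74.5 and 94.7 and 176, 179 and 465 CPM), which lipid-associated macrophages also express. Whether the number of duct cells changed was not tested. Cd24a (missed on dropping FAT-MASH liver 1 or prevention liver 3, adjusted p 0.0508 to 0.0646, range 5.27e-17 to 0.0646) had a call that changed with 1 liver dropped.

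Of 20 genes that mark macrophages recruited to the liver or loaded with lipid, 3 rose and 0 fell (median 0.45): Cd9 (0.57 ± 0.14), Spp1 (1.72 ± 0.43) and Cd14 (1.19 ± 0.33). The count of rises was 5 with library totals or with only these groups in the fit, and 10 with no filter, where 1 also fell. Of 13 Kupffer cell markers Id3 was called (0.89 ± 0.29; 4 rises with no filter) and Clec4f, which defines these cells, was at 139, 131 and 187 and 146, 164 and 115 CPM. Their summed levels overlapped, with 796 to 1192 CPM on FAT-MASH and 885 to 1103 CPM with mannose. Of 16 stellate cell markers 2 rose and 1 fell, of 17 endothelial markers 1 rose and 1 fell, and of the 7 neutrophil, 14 T and NK cell and 8 B and plasma cell markers tested 0 passed. By edgeR's test these 29 markers gave 4 at an unadjusted p under 0.05, and DESeq2 called 2 and limma voom 2. Among stellate genes the rises were Hgf (0.94 ± 0.24) and Pdgfra (0.91 ± 0.23), and the fall was Colec11 (-0.43 ± 0.14) (3 and 0 with library totals, 5 and 1 with no filter). Among endothelial genes the rise was Rspo3 (0.66 ± 0.16), and the fall Stab1 (-0.41 ± 0.14), with no fall under library totals. Stellate markers summed to 661 to 785 CPM on FAT-MASH and 691 to 1052 CPM with mannose, and endothelial markers to 574 to 636 and 572 to 614 CPM. Neutrophil markers summed to 17.2 to 20.1 CPM on FAT-MASH and 20.4 to 32.5 CPM with mannose, and B and plasma cell markers to 395 to 448 and 482 to 561 CPM. Neither sum overlapped, though the neutrophil ranges nearly met, and 15.9% of all single genes were higher without overlap. The B and plasma cell list includes Xbp1, also listed here among hepatocyte transcription factors and unfolded protein response genes. Its sum therefore cannot be assigned to B and plasma cells. Which cells carried the mitotic transcripts was not tested. Spp1 (missed on dropping prevention liver 3, adjusted p 0.0778, range 1.54e-41 to 0.0778), Id3 (missed on dropping FAT-MASH liver 1 or 3 or prevention liver 2 or 3, p 0.0815 to 0.171, range 1.28e-11 to 0.171), Pdgfra (missed on dropping prevention liver 3, p 0.0713, range 2.01e-06 to 0.0713), Colec11 (missed on dropping FAT-MASH liver 1, 2 or 3 or prevention liver 1 or 2, p 0.0578 to 0.163, range 0.0221 to 0.31), Rspo3 (missed on dropping FAT-MASH liver 1, p 0.0557, range 0.00083 to 0.0557) and Stab1 (missed on dropping FAT-MASH liver 1, 2 or 3 or prevention liver 1 or 2, p 0.0501 to 0.203, range 0.0108 to 0.388) had calls that changed with 1 liver dropped.

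Erythroid markers lay lower with mannose. Of 7 of them 0 rose and 2 fell, Hbb-bt (-0.66 ± 0.20) and Hbb-bs (-0.76 ± 0.23), the adult beta globins, with 0 falls under library totals or when FAT-MASH liver 2 or 3 or prevention liver 2 or 3 was left out, and the sum was 606 to 708 CPM on FAT-MASH and 338 to 516 CPM with mannose. Of 5 adipocyte genes tested Pck1 and Fabp4 fell, both of which hepatocytes or macrophages also express, and Lep was at 0 in all 6 libraries. Pancreatic acinar genes summed to 12.9 to 16.7 CPM on FAT-MASH and 11.1 to 11.6 CPM with mannose, with Pnlip, Clps and Amy2a1 at 0 in all 6. How much blood or neighbouring tissue was in each piece of liver was not tested. Hbb-bt (missed on dropping FAT-MASH liver 1, 2 or 3 or prevention liver 2 or 3, adjusted p 0.0628 to 0.142, range 0.000786 to 0.171) and Hbb-bs (missed on dropping FAT-MASH liver 1, 2 or 3 or prevention liver 2 or 3, p 0.0587 to 0.138, range 3.63e-08 to 0.138) had calls that changed with 1 liver dropped.

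Genes of fetal or injured hepatocytes rose in 10 of 22 cases and fell in 1 (median 0.76; 6 rises without FAT-MASH replicate 1). Peg10, an imprinted gene derived from a retrotransposon, went from 3.47, 2.94 and 2.54 to 17.5, 14.3 and 13.2 CPM (2.32 ± 0.22, adjusted p = 5.67e-06), and Sox4 (1.44 ± 0.31) and Anxa2 (1.14 ± 0.26) rose. H19, an imprinted RNA of fetal liver, was the fall, from 4.33, 28.3 and 40.1 to 0.411, 0.350 and 2.36 CPM (-4.49 ± 0.95, adjusted p = 0.00291). The FAT-MASH livers spread widely in H19, and all prevention livers lay below them. Glucocorticoid-responsive genes had 7 falls and 0 rises among 17 tested (median -0.55; 10 and 2 with no filter), among them Tsc22d3 (244, 71.9 and 194 to 32.0, 45.3 and 53.3 CPM; -1.97 ± 0.35, adjusted p = 0.000791) and Ddit4 (-1.88 ± 0.33).

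Single genes were ranked if called, at 5 CPM or more on average over the 6 libraries, and without overlap. Genes with only provisional names, pseudogenes, antigen receptor segments and the Mup family were left out before ranking. Among the genes kept, the 12 steepest rises were Cdc20 (3.88), Ube2c (3.87), Mki67 (3.07), Ccnd1 (3.03), Cdca3 (2.83), Top2a (2.61), Cidec (2.55), Cyp2a4 (2.51), Ect2 (2.46), Psat1 (2.45), Gsta1 (2.42) and Nrg1 (2.36). Gsta1 and Cyp2a4 belong to families of close copies. Nrg1, a ligand of the ERBB receptors, went from 3.00, 4.64 and 5.49 to 20.1, 31.3 and 15.6 CPM. The 12 steepest falls among the genes kept were H19 (-4.49), Slc22a7 (-2.97), Sds (-2.62), Car1 (-2.49), Hamp2 (-2.48), Rgs16 (-2.46), Adrb3 (-2.46), Bhmt (-2.39), Sult2a8 (-2.37), Acpp (-2.36), Orm3 (-2.31) and Upp2 (-2.31). Rgs16, a brake on G-protein signalling, went from 179.8, 74.3 and 108 to 29.3, 25.1 and 11.4 CPM, and Slc22a7, an organic anion carrier, from 18.0, 42.1 and 54.5 to 6.00, 4.09 and 4.55 CPM. Upp2, a uridine phosphorylase of liver, went from 70.0, 91.5 and 222 to 33.6, 13.9 and 29.8 CPM. Cyp2a4 (missed on dropping FAT-MASH liver 2 or 3, adjusted p 0.0585 to 0.069, range 4.98e-79 to 0.069) had a call that changed with 1 liver dropped.

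The dose was compared directly, 20% against 5% mannose over the same 12 weeks. Far fewer genes passed: 21 (0.107%) were higher and 66 (0.337%) lower at 20%. Agxt, which detoxifies glyoxylate, was at 163, 135 and 223 CPM with 5% and 73.0, 54.1 and 81.8 CPM with 20% (log2 difference -1.32 ± 0.20, adjusted p = 0.0105), beside 194, 261 and 277 CPM on FAT-MASH. The 20% livers were below all 5% livers. Of the 35 amino acid breakdown enzymes 7 were lower at 20% and 0 higher (median -0.37), among them Hpd (-0.58 ± 0.12) and Ftcd (-0.64 ± 0.13). Otc was lower too (-0.73 ± 0.13). Cyp7a1 was at 41.5, 29.2 and 29.6 CPM with 5% and 135, 75.5 and 157 CPM with 20% (1.87 ± 0.30, adjusted p = 0.0149), without overlap, beside 67.2, 109 and 165 CPM on FAT-MASH. Acot1 (1.11 ± 0.22, adjusted p = 0.0356) and Abcb1a (1.08 ± 0.21, adjusted p = 0.0346) were higher at 20% as well. Each of these calls was lost when some single libraries were left out: Agxt (on dropping 20% prevention liver 2 or 5% prevention liver 3, adjusted p 0.0724 to 0.082, range 1.71e-22 to 0.082), Hpd (on dropping 20% prevention liver 1 or 2 or 5% prevention liver 1 or 3, adjusted p 0.0625 to 0.217, range 0.000685 to 0.217), Ftcd (on dropping any 1 of the 6, adjusted p 0.0591 to 0.206, range 7.30e-05 to 0.206), Otc (on dropping 20% prevention liver 2 or 5% prevention liver 2 or 3, adjusted p 0.0635 to 0.152, range 1.75e-06 to 0.152), Cyp7a1 (on dropping 5% prevention liver 3, adjusted p 0.086, range 4.54e-46 to 0.086), Acot1 (on dropping 20% prevention liver 1 or 2 or 5% prevention liver 1, 2 or 3, adjusted p 0.0577 to 0.159, range 1.45e-16 to 0.159) and Abcb1a (on dropping 20% prevention liver 1 or 2 or 5% prevention liver 1 or 3, adjusted p 0.0876 to 0.181, range 0.000238 to 0.181).

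Of the 40 mitosis genes 0 passed between the doses (median 0.91), and of the 12 fructose genes 0 (median -0.16). Ccnb1 was at 2.28, 0.905 and 1.79 CPM with 5% (difference 1.73 ± 0.50, adjusted p = 0.103) and Khk at 556, 437 and 666 CPM (difference -0.57 ± 0.17, adjusted p = 0.122). At an unadjusted p under 0.05, edgeR gave 22 of the mitosis genes and 3 of the fructose genes, DESeq2 called 6 and 1, and limma voom 0 and 0. Single libraries moved the counts: without 20% prevention replicate 2, 1 gene was higher and 0 lower, and without 5% prevention replicate 3, 0 were higher and 2 lower. DESeq2 called 272 higher and 396 lower. The direction of the split was not stable: 107 were higher and 72 lower without 20% prevention replicate 3. With library totals 90 were higher and 47 lower, and with no filter 410 and 409.

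**Figure D5:**
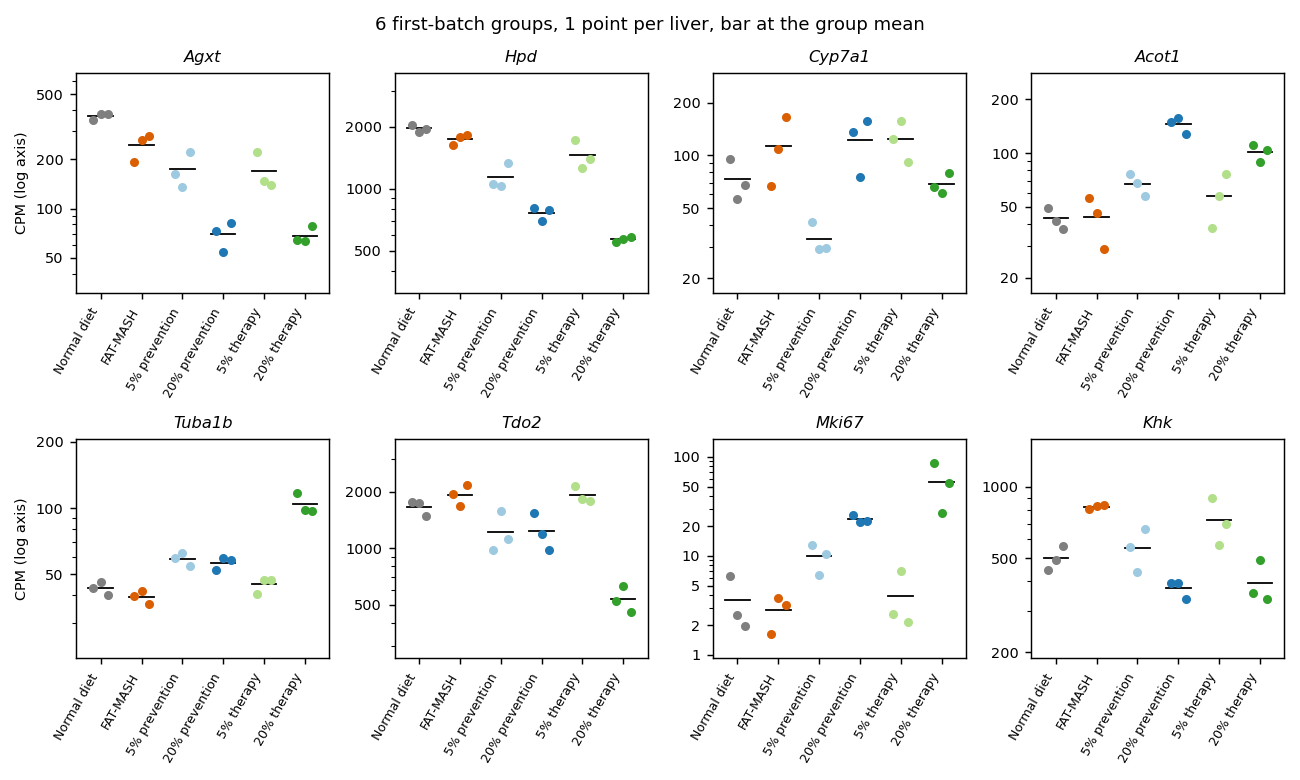
CPM (log axis) of 8 genes in the 18 first-batch livers of 6 groups, with 1 point per liver and a bar at the group mean. Agxt and Hpd are lower with 20% than with 5% prevention, Cyp7a1 is lowest with 5% prevention, and Tuba1b is higher with 20% therapy than with 20% prevention.

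Timing was compared at the same dose, 20% mannose for 12 weeks against its final 6 weeks. Of 19571 genes 11 (0.0562%) were higher with prevention and 5 (0.0255%) lower. Tuba1b, an alpha tubulin, was at 52.1, 59.2 and 57.9 CPM with prevention and 117, 98.2 and 96.7 CPM with therapy (-0.88 ± 0.10, adjusted p = 0.00103). Tubb5, a beta tubulin (-0.53 ± 0.10, adjusted p = 0.0473), the replication helicase gene Mcm7 (-0.58 ± 0.11, adjusted p = 0.0473), Pck2 (-0.72 ± 0.13, adjusted p = 0.0454), the mitochondrial form of the gluconeogenic carboxykinase, and Gstp3 (-0.59 ± 0.11, adjusted p = 0.0473) were the other genes lower with prevention. The therapy livers lay above the prevention livers in Tuba1b without overlap. Among the genes higher with prevention were Cyp2c50 (1.51 ± 0.22, adjusted p = 0.0127), Tdo2, which opens tryptophan breakdown (1.21 ± 0.18, adjusted p = 0.0142), Hrg (0.61 ± 0.10, adjusted p = 0.0316) and Slc27a5, which joins bile acids to coenzyme A (0.67 ± 0.13, adjusted p = 0.0473). Mitosis genes had a median of -1.25 and 0 of 40 passed, with 36 at an unadjusted p under 0.05. DESeq2 called 14 of them lower with prevention and limma voom 29. Leaving out single libraries gave from 0 to 62 higher genes and from 1 to 49 lower, and library totals gave 22 and 161. The 0 was reached without prevention replicate 1 or therapy replicate 1 or 3, and the 62 without therapy replicate 2. The call of Tuba1b held with each library left out, and the others did not: Tubb5 (on dropping 20% prevention liver 1 or 3 or 20% therapy liver 1 or 3, adjusted p 0.0841 to 0.269, range 0.000346 to 0.269), Mcm7 (on dropping 20% prevention liver 1, 2 or 3 or 20% therapy liver 1 or 3, adjusted p 0.0841 to 0.253, range 0.0005 to 0.253), Pck2 (on dropping 20% prevention liver 1, 2 or 3 or 20% therapy liver 1 or 3, adjusted p 0.0748 to 0.253, range 0.000292 to 0.253), Gstp3 (on dropping 20% prevention liver 1, 2 or 3 or 20% therapy liver 1 or 3, adjusted p 0.0599 to 0.253, range 0.0005 to 0.253), Cyp2c50 (on dropping 20% prevention liver 1 or 20% therapy liver 1 or 3, adjusted p 0.0759 to 0.133, range 3.81e-30 to 0.133), Tdo2 (on dropping 20% prevention liver 1 or 20% therapy liver 1 or 3, adjusted p 0.0759 to 0.175, range 1.23e-18 to 0.175), Hrg (on dropping 20% prevention liver 1 or 20% therapy liver 1 or 3, adjusted p 0.112 to 0.238, range 2.16e-06 to 0.238) and Slc27a5 (on dropping 20% prevention liver 1, 2 or 3 or 20% therapy liver 1 or 3, adjusted p 0.0572 to 0.269, range 1.31e-05 to 0.269). With only the compared groups in the fit 0 genes passed.

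Against normal diet, 20% prevention livers differed in 6511 genes (33.3%), 3559 higher (18.2%) and 2952 lower (15.1%). The normal-diet group differs by diet, toxin and mannose at once. Of the cholesterol genes 23 of 24 were lower and 0 higher (median -2.00), and of the periportal genes 16 of 18 were lower and 1 higher (median -1.19). Mitosis genes were higher in 38 of 40 cases (median 2.93), collagens and matrix genes in 31 of 36 (median 1.37), and macrophage markers in 17 of 20 (median 1.99). Male-biased liver genes were lower in 16 of 20 cases (median -2.43). Col1a1 was at 9.40, 17.3 and 4.13 CPM on normal diet (difference 2.40 ± 0.56, adjusted p = 0.0025), Sdhb at 289, 272 and 322 CPM (-0.87 ± 0.09, adjusted p = 7.79e-07), Ccnd1 at 9.64, 8.41 and 7.34 CPM (4.04 ± 0.31, adjusted p = 2.15e-08) and Hpd at 2053, 1895 and 1966 CPM (-1.37 ± 0.12, adjusted p = 1.12e-07). Khk was at 447, 491 and 561 CPM (-0.42 ± 0.17, adjusted p = 0.0651).

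The effect of 20% mannose on the regimen was set against its effect on normal diet in the second batch, in 1 fit of all 25 libraries with a batch term. The difference of the effects passed for 1211 of 21373 genes (5.67%), 483 (2.26%) in the higher direction and 728 (3.41%) in the lower. Among mitosis genes it passed for 21 of 40, all higher on the regimen (median 3.10). Among tubulins and their factors it passed for 7 of 15, all higher (median 1.06). Amino acid breakdown enzymes passed in the lower direction in 17 of 35 cases and in the higher in 1 (median -0.65), respiratory chain subunits in 12 of 29 (median -0.46), complement and coagulation genes in 13 of 40 (median -0.46) and fructose genes in 4 of 12 (median -0.59). Tubb2a was at 169 and 191 CPM without and 150.0, 151 and 136 CPM with mannose on normal diet (difference of effects 2.22 ± 0.25, adjusted p = 3.85e-05). Ccnd1 was at 14.8 and 8.90 and 11.6, 10.3 and 12.1 CPM (3.09 ± 0.40, adjusted p = 0.000101). Sdhb was at 223 and 244 and 212, 235 and 221 CPM (-0.72 ± 0.13, adjusted p = 0.00222). In Ccnd1 and Sdhb the mannose and control livers of the second batch overlapped, with the 2 Ccnd1 controls well apart. In Tubb2a all mannose livers of that batch lay below its controls, while on the regimen they lay above all FAT-MASH livers. The second batch holds 2 livers without mannose, and without replicate 4 of normal diet, 1 of these 2, 197 genes passed in the higher direction and 348 in the lower. Without FAT-MASH replicate 2 these were 301 and 506, and without prevention replicate 2 they were 263 and 478. Among the 40 mitosis genes DESeq2 called 29 and limma voom 5.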

How the data were processed

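RNA of mouse liver was sequenced in 25 libraries, 18 in a first and 7 in a second batch by the labels. The authors deposited raw read counts per gene. Per the submitters' processing notes reads were aligned with STAR to GRCm39 and counted with featureCounts 2.0.6, while the file header names version 2.0.1 with GENCODE M31 and no option for strand, pairs or reads with several places. Antisense or overlapping genes and near-identical copies are therefore uncertain.

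Counts of the 18 first-batch libraries were fitted together by group with edgeR 4.0.16 (R 4.3.3): TMM scaling, filterByExpr, quasi-likelihood test, Benjamini-Hochberg over 19571 genes. The difference between diets was fitted over all 25 libraries with group and batch (21373 genes). CPM were scaled within batch. DESeq2 1.42.0, limma 3.58.1 voom with sample weights, other scalings, no filter, other libraries in the fit, a replicate block and each library left out were the alternatives. The replicate numbers were not taken as pairs. The pipeline was tested on simulated data, with changes set in genes above a minimum count. It recovered 25.4% of genes changed 1.5-fold, 58.2% of those changed 2-fold and 89.4% of those changed 4-fold. A gene that did not pass may therefore still have changed. Libraries of a group differed by more than sampling noise.

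Named genes were the 12 largest rises and 12 largest falls without overlap and with at least 5 CPM, up to 8 called members of each list described by smallest p, members that did not pass, and fructose, mannose and marker genes. The largest rises and falls were ranked without provisionally named genes, pseudogenes, antigen receptor segments and the Mup family. Of 1197 listed symbols 1191 were found. The members, the 60 lists and this rule were chosen with earlier results of these data known. Promoters come from RefSeq. Second-batch libraries with 5% mannose on normal diet entered the fits and are not described. Results for some genes are not reported here.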

Additional observations from a re-analysis of the deposited data

Results flagged for a closer look

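For 122 of the 247 named genes the effect of 20% mannose on the regimen differed from its effect on normal diet (edgeR's interaction term, adjusted p under 0.05), 53 in the higher direction and 69 in the lower. Most of these genes were named because they passed between 20% prevention and FAT-MASH, and the same 6 libraries enter this difference, so their share cannot be read against the 2.26% higher and 3.41% lower of all genes tested. The values below are these differences in log2: the effect on FAT-MASH in the first batch minus the effect on normal diet in the second. Without normal diet replicate 4, 1 of the 2 second-batch livers without mannose, 545 genes passed in place of 1211. Where livers of a group had 0 counts (Plk1, Areg and Rgs16 in the second batch among them), the fitted value is no bound. Batch and diet cannot be told apart beyond each effect being taken within its batch. Among genes of cell division the difference was 8.38 for Plk1, 5.90 for Nuf2, 5.53 for Cenpf, 4.88 for Ube2c, 4.31 for Foxm1, 3.53 for Top2a, 3.41 for Mybl1, 3.10 for Ect2, 3.09 for Ccnd1, 2.82 for Cdc20, 2.59 for Tubb2b, 2.24 for Mcm5, 2.22 for Tubb2a, 2.04 for Cdk1, 1.47 for Mcm6, 1.42 for Spc25, 1.18 for Tuba1c, 1.05 for E2f3 and 0.54 for Tubb5. There it was also -0.81 for Tk1 and -1.48 for Ccnf. Among growth factor, duct and fetal genes the difference was 8.49 for Areg and 2.88 for Peg10. Lower differences were -1.24 for Hgfac and -6.43 for H19. Among sugar genes the difference was -0.67 for Slc2a9, -0.73 for Pcx, -0.75 for Shpk, -0.78 for Gckr, -0.79 for Gcgr, -0.94 for Pygl, -0.98 for Mlxipl, -0.99 for Gpt, -1.29 for Pklr, -1.33 for Slc37a4, -1.44 for Khk, -1.53 for Nr0b2, -1.97 for Sds and -2.49 for Slc2a5. Among genes of amino acids, liver zonation and the glucocorticoid response the difference was 2.06 for Acmsd and 1.07 for Axin2. The negative values were -0.73 for Asl, -1.03 for Otc, -1.04 for Hpd, -1.05 for Prodh2, -1.19 for Ftcd, -1.37 for Cyp2e1, -1.54 for Gnmt, -1.59 for Hal, -2.13 for Tsc22d3 and -2.66 for Bhmt. Among respiratory chain subunits the difference was -0.51 for Uqcrc1, -0.53 for Cox4i1, -0.57 for Cyc1, -0.65 for Ndufs3 and -0.72 for Sdhb. Among lipid and lipoprotein genes the difference was 3.58 for Cyp4a14, 1.64 for Ehhadh, 1.50 for Acot1, 1.24 for Acot2, 1.22 for Hilpda and 1.08 for Hsd17b7. There it was also -0.55 for Acaa2, -0.57 for Acads, -0.62 for Echs1, -0.78 for Dgat2, -0.87 for Agpat2, -0.88 for Apoe, -0.95 for Slc27a5, -0.96 for Apoc3, -1.14 for Lipc and -1.90 for Fabp4. Among complement, coagulation and acute phase genes the difference was -0.998 for C8g, -1.04 for Hrg, -1.16 for F7, -1.22 for F11 and -1.28 for Saa4. Among bile acid, transporter, drug-processing, hepatocyte factor and growth hormone genes the difference was 3.05 for Gsta1, 2.71 for Gstm3, 2.55 for Slc10a2, 2.20 for Abcb1a, 1.82 for Cyp2c55 and 0.78 for Rora. In that group it was -0.67 for Ghr, -0.73 for Nr1h4, -1.07 for Akr1d1, -1.11 for Gstp3, -1.13 for Sult1b1, -1.50 for Cyp2c50, -1.95 for Cyp2d9, -2.36 for Cyp2c54, -2.64 for Sult2a8 and -3.98 for Slc22a7. Among genes of stress, inflammation, matrix, iron handling, the circadian clock and other cell types the difference was 3.22 for Atf3, 3.06 for Psat1, 2.82 for Cx3cl1, 2.77 for Id1, 2.12 for Cxcl10, 2.11 for Smad7, 1.82 for Srxn1, 1.72 for Id3, 1.37 for Slc3a2, 1.35 for Nfkb2, 1.19 for Bcl3, 1.12 for Adamts1, 1.10 for Nid1, 0.85 for Lamc1 and 0.70 for Atf6. The negative values were -0.55 for Tfr2, -0.59 for Shmt2, -0.84 for Col18a1, -0.98 for Hlf and -1.68 for Herpud1. Among the other genes named the difference was 3.24 for Nrg1, 3.13 for Mki67 and 3.04 for Cdca3. In that group it was -1.52 for Agxt, -2.19 for Upp2, -2.64 for Car1, -2.96 for Adrb3, -3.09 for Acpp and -10.78 for Rgs16.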

How the results depend on the processing

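The count for 20% prevention against FAT-MASH was 2952 genes and lay between 2707 and 4015 under 8 changes of tool, scaling, filter, libraries or block. Leaving out single libraries gave 1938 to 2476, with 1938 without prevention replicate 2. The dose comparison (87 genes) gave 20 with only the groups compared, 668 with DESeq2, 137 with library totals, 819 without a filter and 400 with limma voom, and from 1 to 179 with single libraries left out. The timing comparison (16 genes) gave 0 with only the groups compared, 26 with all 25 libraries, 398 with DESeq2, 183 with library totals, 702 without a filter and 483 with limma voom, and from 1 to 111 with single libraries left out. The 0 came with edgeR. The difference between diets (1211 genes) gave 545 to 1253 with single libraries left out, and the comparison with normal diet (6511) 5193 to 5759. Under library totals the diet difference split into 1425 higher and 375 lower, and the comparison with normal diet into 5980 and 1640. The cause of these differences was not tested.

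With the replicate number as a block (replicate block), 2801 genes passed against FAT-MASH, 28 between the doses, 3 between prevention and therapy and 6219 against normal diet. The labels do not say that the numbers pair the samples. Same-numbered FAT-MASH and prevention livers had correlations of deviation of 0.0825, -0.0856 and 0.0724, and not every library correlated best with its own number. For same-numbered prevention and therapy livers at 20% they were -0.14, 0.169 and 0.303. With so few livers per group, these values cannot settle whether cages or litters were shared. For the difference between diets the numbers in the column names were used as the block within each batch, an alternative chosen after seeing the data, and 1019 genes passed, 442 higher and 577 lower. The column numbers 11 and 13 are shared by normal-diet livers without and with 20% mannose, whose deviations correlated at 0.13 and 0.0228.

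Of the 247 named genes 173 had the same call in all 14 alternatives for the FAT-MASH comparison, and of 3458 values 3159 were on the same side of the threshold, 268 lost it, 31 gained it and 0 changed sign while called. Of 120 counts over the 60 lists, 2 directions each, 41 moved by over 1.5 times with library totals, 42 without a filter and 19 to 35 with a library left out. Depth limits genes near 0: 3 counts per library, the floor taken here, came to 0.0772 CPM on FAT-MASH.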

Other observations

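The other sugar lists had few calls. Of 23 glycolysis genes 2 fell, Gpi1 (-0.46 ± 0.12) and Pklr (-0.68 ± 0.21), with a median log2 fold change of -0.15 over the list (1 rise and 0 falls with library totals). Of 17 genes of glycogen synthesis and breakdown 4 fell and 2 rose (median -0.21). With library totals 1 fell and 3 rose, and 0 rose when liver 1 or 2 of either group was left out. Pygl, the liver glycogen phosphorylase, went from 694, 783 and 773 CPM on FAT-MASH to 486, 428 and 423 CPM with 20% prevention (-0.75 ± 0.12, adjusted p = 0.000316), and Gys2, the liver glycogen synthase, from 163, 155 and 161 to 137, 106 and 118 CPM (-0.41 ± 0.11, adjusted p = 0.0139). The groups did not overlap in either gene. The other falls were Phka2 (-0.55 ± 0.13) and Phkg2 (-0.57 ± 0.16), subunits of phosphorylase kinase, and Pgm2 (0.49 ± 0.16) was among the rises. Of 11 pentose phosphate genes 2 rose, G6pdx (0.59 ± 0.15) and Pgd (0.66 ± 0.18), the dehydrogenases that make NADPH, and 2 fell, Shpk (-0.73 ± 0.12) and Pgls (-0.49 ± 0.12) (median -0.03). With library totals 3 rose and 1 fell, and 0 rose without FAT-MASH replicate 1 or prevention replicate 2. Gpi1 (missed on dropping FAT-MASH liver 1 or 2 or prevention liver 1, adjusted p 0.051 to 0.0547, range 0.00308 to 0.0965), Pklr (missed on dropping FAT-MASH liver 2 or prevention liver 1, 2 or 3, p 0.0758 to 0.21, range 1.88e-06 to 0.21), Gys2 (missed on dropping prevention liver 2, p 0.093, range 0.00455 to 0.093), Phkg2 (missed on dropping FAT-MASH liver 1 or 2 or prevention liver 2, p 0.0655 to 0.122, range 0.00757 to 0.122), Pgm2 (missed on dropping any 1 of the 6, p 0.052 to 0.219, range 0.00891 to 0.219), G6pdx (missed on dropping FAT-MASH liver 1 or prevention liver 2, p 0.0737 to 0.0813, range 0.00207 to 0.0813) and Pgd (missed on dropping FAT-MASH liver 1 or prevention liver 2, p 0.0923 to 0.147, range 2.49e-06 to 0.147) had calls that changed with 1 liver dropped.

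Genes of conjugation, which joins glutathione, glucuronide or sulfate to drugs and hormones, rose in 4 of 37 cases and fell in 9 (median -0.03). With library totals 8 rose and 5 fell, with no filter 10 and 9, and without prevention replicate 3 the counts were 8 and 6, so which direction had more calls depends on these settings. Without prevention replicate 2 there were 4 rises and 5 falls. Gstm3, a glutathione transferase, went from 169, 211 and 312 to 1115, 1327 and 477 CPM (2.08 ± 0.34, adjusted p = 0.000401), and Ugt1a9, Gstm2 and Gsta1 were the other rises. Sult1b1, a sulfotransferase, went from 26.9, 26.3 and 33.1 to 16.6, 12.7 and 13.9 CPM (-0.997 ± 0.15, adjusted p = 0.000154). Both genes belong to families of similar sequence. Of 18 genes of iron handling 4 rose and 3 fell (median -0.07; 5 and 2 with library totals). Tfrc, the transferrin receptor that takes up iron, went from 23.5, 15.1 and 21.6 to 63.3, 41.3 and 31.0 CPM (1.17 ± 0.24, adjusted p = 0.00238), and Tfr2, the hepatocyte sensor of transferrin, from 449, 456 and 428 to 326, 314 and 293 CPM (-0.51 ± 0.09, adjusted p = 0.000718), with no overlap in either. The other rises were Smad7 (0.75 ± 0.16), Id1 (1.08 ± 0.25) and Slc11a2 (0.46 ± 0.14), and the other falls Hamp2 (-2.48 ± 0.48) and Tmprss6 (-0.37 ± 0.11). Of 19 circadian clock genes 1 rose, Rora, and 2 fell, Hlf (-0.74 ± 0.16) among them (median -0.40; 7 falls with no filter and 4 without prevention replicate 3). Slc11a2 (missed on dropping FAT-MASH liver 2 or 3 or prevention liver 1 or 2, adjusted p 0.0767 to 0.163, range 0.00175 to 0.163) and Tmprss6 (missed on dropping FAT-MASH liver 2 or 3 or prevention liver 2 or 3, p 0.0674 to 0.104, range 0.00783 to 0.182) had calls that changed with 1 liver dropped.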
